A study of Mus musculus with 10 samples.

Results

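Complex I (NADH:ubiquinone oxidoreductase) is the entry point of the mitochondrial respiratory chain, and its nuclear genes were taken as all protein-coding records whose symbol begins with Ndufa, Ndufb, Ndufc, Ndufs or Ndufv. The rule found 47 of the 54347 gene records of the table. They comprised 37 subunits, 8 Ndufaf assembly factors, which help to build the complex and are not part of it, and the pair Ndufa4 and Ndufa4l2, which is described apart because Ndufa4 is known as a component of cytochrome c oxidase and Ndufa4l2 is its paralog. Ndufb1 was listed under the symbol Ndufb1-ps, with the biotype protein coding.

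The RNA came from the brown fat pad that lies between the shoulder blades and generates heat (interscapular brown adipose tissue, iBAT). 10 mice on the C57BL/6N background were killed at 12 weeks of age after being housed singly at 4 °C for 24 h. In 5 of them, called ΔGm15551 (replicates 1, 2, 4, 5 and 7), CRISPR/Cas9 had deleted exon 1 of the long non-coding RNA gene Gm15551, and the line had been backcrossed to wild-type animals. The other 5 were wild type mice (replicates 2, 3, 5, 6 and 7). The deletion was not restricted to fat by a Cre or a promoter, and all mice were in the cold, so that the data hold the effect of genotype in cold-exposed tissue and no effect of cold. Each library carried the identifier of a mouse of its own. The question was whether loss of Gm15551 alters gene expression in activated brown fat.

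Complex I takes electrons from NADH, hands them to ubiquinone and pumps protons across the inner mitochondrial membrane. In brown adipocytes the proton gradient is released as heat through UCP1, and the tissue is rich in mitochondria. The complex is L-shaped: the matrix arm holds the N module, where NADH is oxidised, and the Q module, where ubiquinone is reduced, and the membrane arm has a proximal and a distal part. The membrane core is encoded by the mitochondrial genome (mt-Nd genes), all other subunits by nuclear genes.

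The libraries held 9680976 to 15771170 counts. Gm15551 had no count in any ΔGm15551 mouse and 1, 2, 6, 7 and 0 counts in wild type replicates 2, 3, 5, 6 and 7, and a count of 0 allows up to 3, so that at this depth the gene checks the genotype of few of the mice. The 13 brown adipocyte markers were counted in every mouse and took 2.57% to 3.11% of all counts, with Ucp1 at 5747 to 10989 CPM (counts scaled to a common library size, with TMM factors). The 10 skeletal muscle markers took 0.258% of the counts in wild type replicate 7, 0.157% in ΔGm15551 replicate 4, 0.0743% in ΔGm15551 replicate 1 and 0.000158% to 0.0244% elsewhere. Of these, Acta1, Ckm, Myh4, Tnnt3, Tnni2 and Actn3 were at 0 in at least 1 mouse. Macrophage markers (5 genes) took 0.00147% to 0.00329% and white adipocyte markers (4 genes) 0.00319% to 0.0117%. In such bulk tissue, fewer cells of a type and less RNA per cell cannot be told apart.

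No gene of complex I passed the test for a difference between ΔGm15551 and wild type iBAT. All 47 genes passed the filter on low counts, and none had an adjusted p under 0.05 (edgeR quasi-likelihood test, Benjamini-Hochberg over all 13733 genes tested, where 0% passed), and the smallest adjusted p among them was 0.99998. None had an unadjusted p under 0.05 either, against 1.6% of all genes tested, and the DESeq2 and limma-voom fits likewise had 0 of the 47 under either threshold. In none of the 47 were the 5 ΔGm15551 mice all above or all below the 5 wild type mice, which held for 0.32% of all genes. The log2 fold change (log2FC, ΔGm15551 over wild type) had a median of 0.02 over the subunits, with a range of -0.13 to 0.18, and of -0.06 over the assembly factors, with a range of -0.13 to 0.10. Over all genes tested the median was -0.001.

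The confidence intervals bound the size of any difference. The 95% confidence interval of the log2FC lay between -1 and 1, that is within a 2-fold change either way, for 47 of 47 genes, against 90.2% of all genes tested. It lay between -0.5 and 0.5 for 36 of 47, against 55.1% of all genes. All members but Ndufa4l2 averaged at least 10 CPM, and of the 8082 tested genes at that level 98.6% lay within the wider limits and 79.6% within the narrower, against 46 and 36 (78.3%) of those 46 members. By sign alone, 30 of the 47 were higher in ΔGm15551, against 49.7% of all genes, but the subunits shifted together from mouse to mouse, and the count does not stand for 47 separate observations. Without the 3 libraries in which short subunit mRNAs were highest (ΔGm15551 replicates 1 and 5, wild type replicate 7, left out after seeing the data), the median log2FC of the subunits was -0.05 instead of 0.02, and 0 genes were called. The mouse numbers of wild type replicates 5, 6 and 7 form a separate, higher series that no ΔGm15551 mouse shares. Without these 3 the median was 0.09, and 0 genes were called.

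**Figure D1:**
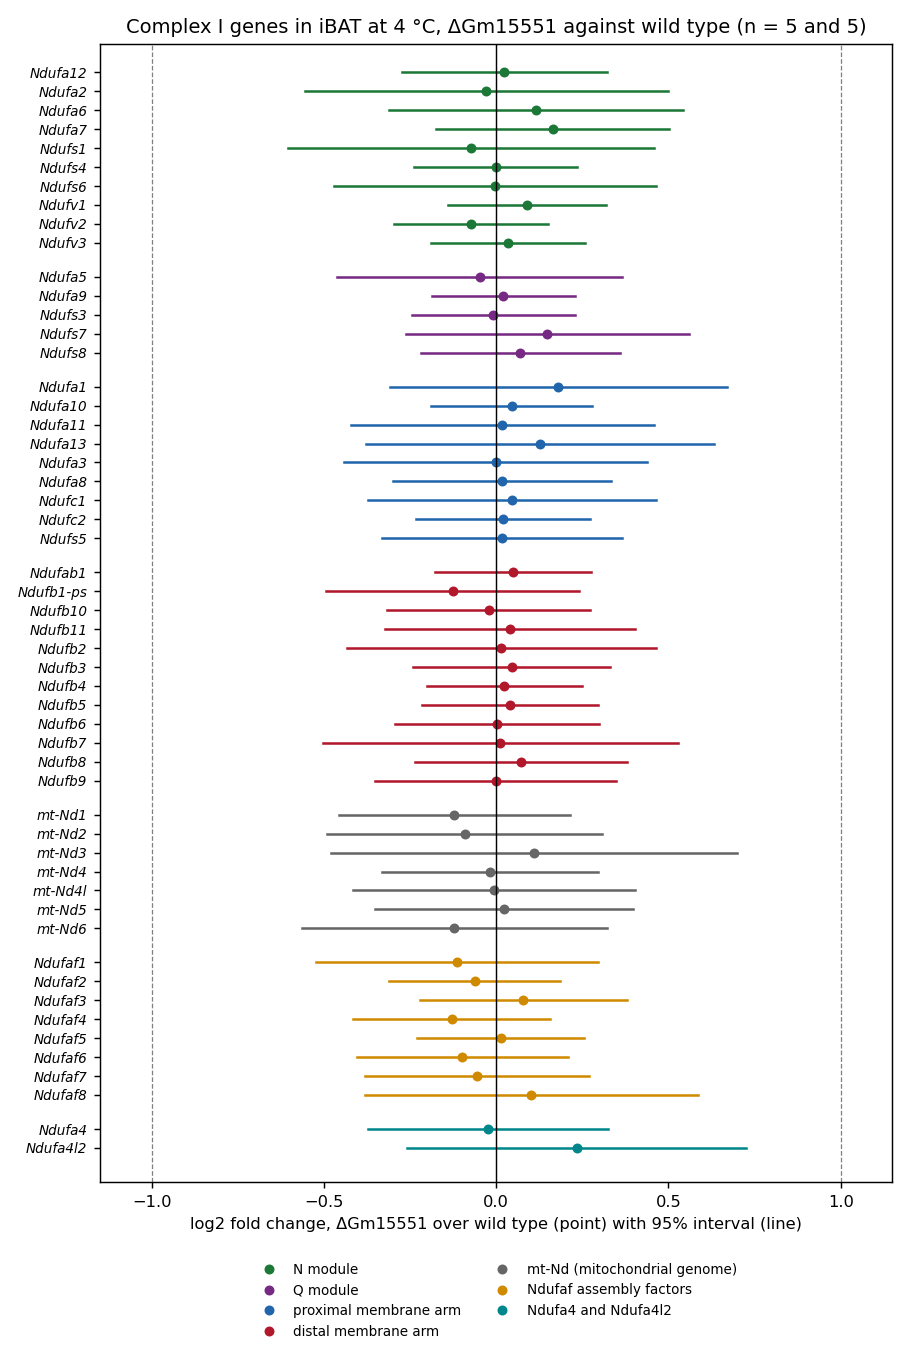
The plot gives the log2 fold change of complex I genes, with 36 of the 37 subunits, in ΔGm15551 over wild type (horizontal axis, point) with its 95% confidence interval (line), for n = 5 and 5 mice, grouped by module; dashed lines mark -1 and 1. Every interval crosses 0 and stays inside the dashed lines, and the longest ones belong to Ndufs1, Ndufa2 and Ndufb7 and to mt-Nd3.

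The N module, which oxidises NADH, had 10 of 10 genes tested and 0 called, with a median log2FC of 0.01. Its FMN-binding core subunit Ndufv1 stood at 715, 827, 757, 878 and 808 CPM in the ΔGm15551 mice (replicates 1, 2, 4, 5 and 7) and at 752, 707, 804, 780 and 700.1 CPM in the wild type mice (replicates 2, 3, 5, 6 and 7). The groups overlapped, and the log2FC was 0.09 with a 95% interval of -0.14 to 0.32. Ndufv2, which carries an iron-sulphur cluster beside it, spanned 416 to 511 CPM in ΔGm15551 against 438 to 509 CPM in wild type. Its log2FC was -0.07 (-0.30 to 0.15). Ndufs4 and Ndufv3 are accessory subunits of this module, and loss of Ndufs4 is a known cause of complex I deficiency. Ndufs4 averaged 183 ± 18.2 CPM in ΔGm15551 against 183 ± 16.2 CPM in wild type (SD, n = 5 each), a log2FC of -0.001 (-0.24 to 0.24). Ndufv3 averaged 250.1 ± 24.0 CPM and 244 ± 13.7 CPM, a log2FC of 0.03 (-0.19 to 0.26).

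Ndufa7, an accessory subunit of the N module, had the smallest unadjusted p of all 47 genes. It was counted at 141, 110.4, 106, 164 and 114 CPM in the ΔGm15551 mice and at 123, 86.9, 107, 108 and 142 CPM in the wild type mice. ΔGm15551 replicates 1 and 5 and wild type replicate 7 were the 3 highest, so that both groups held high mice. The log2FC was 0.16 (-0.17 to 0.50). With 1 mouse left out it ran from 0.055 (without ΔGm15551 replicate 5) to 0.26 (without wild type replicate 7).

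Ndufs1, the largest nuclear subunit of the complex and the core protein that carries several iron-sulphur clusters of the N module, had the largest within-group SD of the 47 genes (0.48 on the log2 scale). Its gene lies at chr1:63143596-63176833 (GRCm38, minus strand), and its exons overlap those of Eef1b2 and Ino80dos on the other strand. The ΔGm15551 mice had 252, 537, 477, 333 and 536 CPM and the wild type mice 389, 574, 515, 517 and 251 CPM. Each group held mice near 250 CPM (ΔGm15551 replicate 1, wild type replicate 7) beside mice above 500 CPM. The log2FC was -0.07 (-0.61 to 0.46), the widest interval of the 47 genes. It turned to 0.07 without ΔGm15551 replicate 1, to 0.03 without wild type replicate 3 and to 0.001 without ΔGm15551 replicate 5.

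In the Q module, where ubiquinone is reduced, 6 of 6 genes were tested and 0 called, with a median log2FC of 0.05. Ndufa9, an accessory subunit of this module, was among the steadiest genes of the complex. It averaged 405 ± 16.7 CPM in ΔGm15551 and, in wild type, 399.6 ± 21.8 CPM (SD, n = 5 each). The 10 mice differed by at most 1.17-fold, and the within-group SD was 0.07 on the log2 scale. The log2FC was 0.02 (-0.19 to 0.23).

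The core subunits of the Q module described here had wider spreads than Ndufa9. Ndufs3 averaged 277 ± 24.6 CPM in ΔGm15551 against 279 ± 25.0 CPM in wild type, a log2FC of -0.01 (-0.24 to 0.23). Ndufs8, which carries iron-sulphur clusters, averaged 233 ± 37.8 CPM and 222 ± 25.4 CPM, a log2FC of 0.07 (-0.22 to 0.36). Ndufs7, which carries the last cluster before ubiquinone, had 374, 275, 276, 429 and 306 CPM in ΔGm15551, against 331, 184, 322, 281 and 382 CPM in wild type. Wild type replicate 3 was the lowest of the 10 mice and ΔGm15551 replicate 5 the highest, 2.34-fold apart. The log2FC of Ndufs7 was 0.15 (-0.26 to 0.56).

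The membrane arm had no called gene either. In its proximal part 9 of 9 genes were tested and 0 called (median log2FC 0.02, range -0.001 to 0.18), with Ndufa1, a small membrane subunit encoded on the X chromosome, at the upper end (0.18, -0.31 to 0.67). In the distal part 12 of 12 were tested and 0 called (median 0.02, range -0.13 to 0.07). Ndufab1, the mitochondrial acyl carrier protein, serves fatty acid synthesis as well as the complex. It averaged 374 ± 32.6 CPM in ΔGm15551 against 361 ± 19.8 CPM in wild type, a log2FC of 0.05 (-0.18 to 0.27).

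For the membrane core encoded by the mitochondrial genome, 7 of 7 mt-Nd genes were tested and 0 called, with log2FC values of -0.12 (mt-Nd1 and mt-Nd6), -0.09 (mt-Nd2), -0.02 (mt-Nd4), -0.01 (mt-Nd4l), 0.02 (mt-Nd5) and 0.11 (mt-Nd3). Together they took 6.61% ± 1.05 of the counts in ΔGm15551 and 6.91% ± 0.346 in wild type, against 1.14% ± 0.152 and 1.11% ± 0.133 for the 37 nuclear subunits (SD, n = 5 each). The lowest mt-Nd share, 5.08%, belonged to ΔGm15551 replicate 5, in which the share of the nuclear subunits was the highest of all (1.33%).

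Of the assembly factors, 8 of 8 were tested and 0 called. Ndufaf4 had the smallest p among them: 81.1, 91.4, 84.9, 69.9 and 110.0 CPM in ΔGm15551, against 91.4, 115, 82.8, 94.5 and 94.5 CPM in wild type, a log2FC of -0.13 (-0.42 to 0.16). Ndufaf2 is a paralog of the subunit Ndufa12 and holds its place during assembly. Ndufa12 averaged 229.8 ± 33.5 CPM in ΔGm15551 against 226 ± 34.1 CPM in wild type (log2FC 0.02, -0.27 to 0.32), and Ndufaf2 averaged 17.0 ± 2.76 CPM and 17.8 ± 0.622 CPM (log2FC -0.06, -0.31 to 0.19). Of 13 assembly genes with other names, 12 were tested, and 0 were called. Lyrm2 had the smallest p of these, at 10.5 ± 1.30 CPM in ΔGm15551 against 12.6 ± 1.51 CPM in wild type (log2FC -0.27, -0.54 to 0.0003). Of 11 regulators of mitochondrial genes, among them Ppargc1a, Esrra, Nrf1, Gabpa and Tfam, 11 were tested and 0 called. Ppargc1a, a coactivator of mitochondrial biogenesis that cold induces, averaged 222 ± 59.4 CPM and 232 ± 95.9 CPM.

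Neither Ndufa4 nor Ndufa4l2 was called. Ndufa4 stood at 815, 488, 558, 664 and 589 CPM in ΔGm15551 and at 622, 630, 561, 529 and 823 CPM in wild type (log2FC -0.02, -0.37 to 0.32). Ndufa4l2 (chr10:127514967-127517154, plus strand, exons overlapping those of Shmt2 on the other strand) is known to be induced by low oxygen in other cell types. It had 11.2, 7.17, 8.26, 12.7 and 10.9 CPM in ΔGm15551, against 7.79, 6.17, 7.58, 7.16 and 14.3 CPM in wild type. The highest mouse (replicate 7) and the lowest (replicate 3) were both wild type, and the groups overlapped. The log2FC was 0.23 (-0.26 to 0.73). Without wild type replicate 7 it was 0.49 (adjusted p = 0.975 in the edgeR quasi-likelihood test). Ndufa4l2 was the only gene of the 47 to pass an unadjusted p of 0.05 when a mouse was left out. In that fit 404 of all 13888 genes tested passed it.

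**Figure D2:**
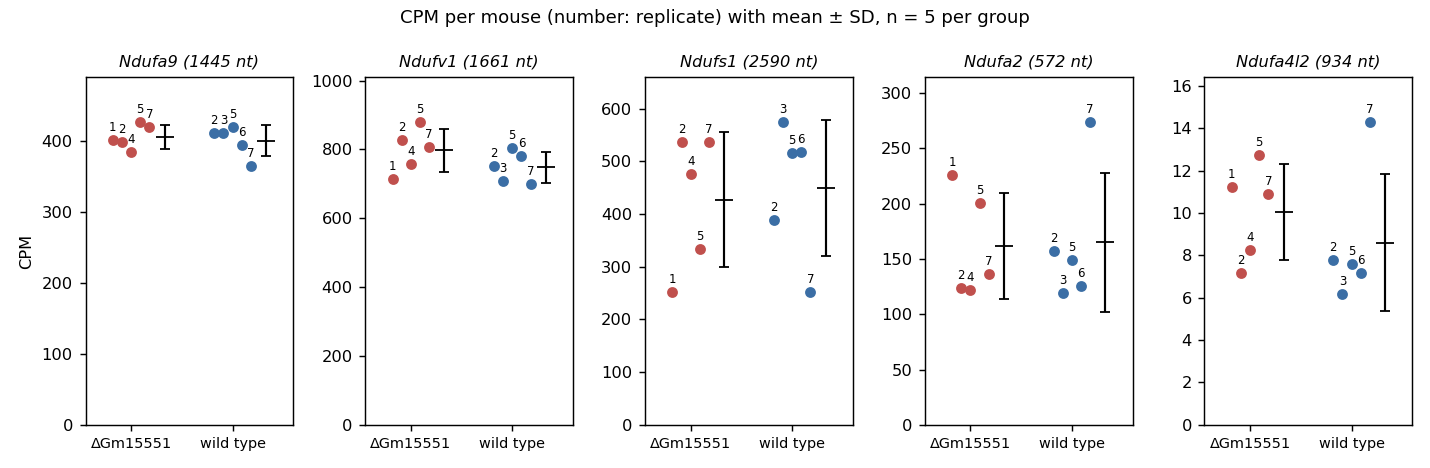
The panels give the CPM (vertical axis, from 0) of Ndufa9, Ndufv1, Ndufs1, Ndufa2 and Ndufa4l2 in each mouse, with the replicate number beside each point and bars for mean ± SD of n = 5 ΔGm15551 and n = 5 wild type mice. Ndufa9 spans 364 to 426 CPM, whereas Ndufs1 is lowest and Ndufa2 highest in ΔGm15551 replicate 1 and wild type replicate 7.

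The subunit mRNAs did vary between mice, and they varied together in both genotypes. Each gene's log2 CPM was set against its own mean over the 10 mice. In ΔGm15551 replicate 5, 34 of the 37 subunits lay above their mean, in wild type replicate 7 it was 32, in ΔGm15551 replicate 1 it was 31 and in wild type replicate 2 it was 28. In ΔGm15551 replicates 2 and 4 and wild type replicates 3 and 6 only 4, 2, 5 and 4 of 37 did. ΔGm15551 replicate 7 (14 of 37) and wild type replicate 5 (16 of 37) lay between. Over all tested protein-coding genes the share above the mean was 48.4% to 53.8% in every mouse. The mice high in subunits thus came from both groups, and those low in subunits did too.

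**Figure D3:**
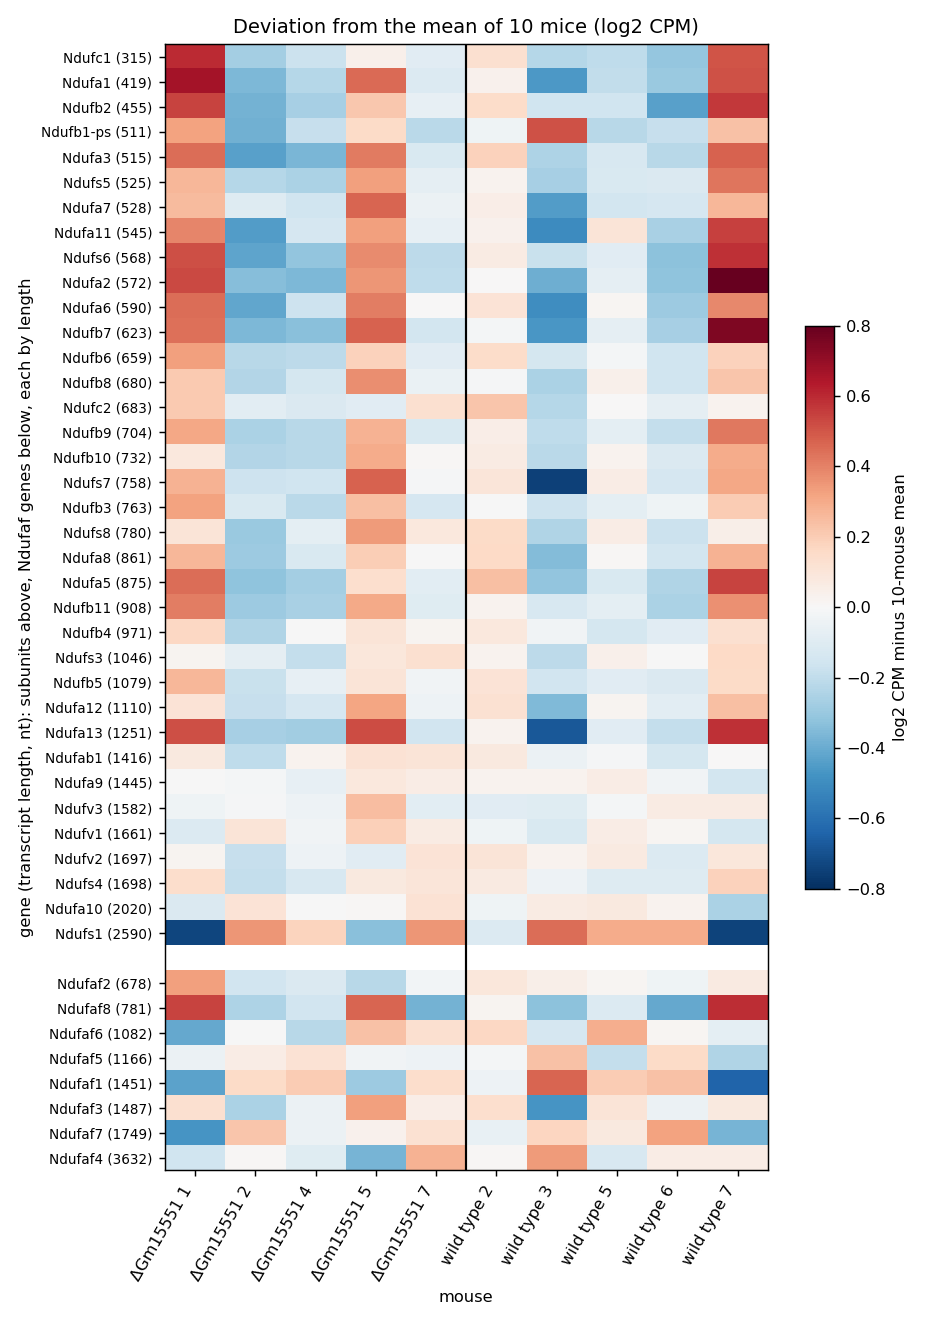
The heat map gives log2 CPM minus the 10-mouse mean (colour, red above and blue below) for 36 of the 37 subunits and, below the gap, the 8 Ndufaf genes, each ordered by principal transcript length in nt, in 5 ΔGm15551 and 5 wild type mice. The 15 short subunits are red in ΔGm15551 replicate 1 and wild type replicate 7 and 14 of them in ΔGm15551 replicate 5, and Ndufs1, the longest, is blue there.

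The pattern followed the length of the transcript. Complex I subunits are encoded by short mRNAs: the median principal transcript had 763 nt, against 2827 nt over 12274 tested protein-coding genes, and 40.5% were under 700 nt, against 2.92%. The 15 subunits under 700 nt had a median deviation of 0.44 and 0.35 (log2) in ΔGm15551 replicates 1 and 5 and of 0.47 in wild type replicate 7. In the other mice it ran from -0.36 (ΔGm15551 replicate 2) to 0.05 (wild type replicate 2). All 15 were above their mean in ΔGm15551 replicate 1 and wild type replicate 7, and none was in ΔGm15551 replicates 2 and 4 and wild type replicate 6. The 13 subunits of 700 to 1400 nt followed with smaller deviations, -0.24 to 0.28. The median of the 9 subunits over 1400 nt stayed between -0.05 and 0.10, although single genes did not: Ndufs1 ran from -0.74 to 0.45. With the median length of the protein-coding transcripts of a gene in place of its shortest principal transcript, 18 subunits were under 700 nt, and their median deviation was 0.32 and 0.33 in ΔGm15551 replicates 1 and 5 and 0.34 in wild type replicate 7.

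Single genes show both ends of this range. Ndufa2, an N module accessory subunit with a transcript of 572 nt, had 226, 124, 122, 200.2 and 136 CPM in ΔGm15551, against 157, 119, 149, 126 and 274 CPM in wild type. It was highest where Ndufs1, with 2590 nt, was lowest, and the ratio of Ndufs1 to Ndufa2 counts ran from 0.919 in wild type replicate 7 and 1.12 in ΔGm15551 replicate 1 to 4.80 in wild type replicate 3. The 2590 nt are those of the principal transcript. By the planned median transcript length Ndufs1 had 651 nt and was one of the short subunits, although it moved against them. The genotype log2FC of Ndufa2 was -0.03 (-0.56 to 0.50). Ndufb7, of the distal membrane arm, had 304, 175, 178, 311 and 202 CPM in ΔGm15551, against 222, 162, 214, 186 and 377 CPM in wild type (log2FC 0.01, -0.50 to 0.53). The same 3 mice were again the highest. The 8 assembly factors had deviations of both signs in ΔGm15551 replicates 1 and 5 and wild type replicate 7. In that order of mice the 4 shortest deviated by 0.33, -0.22 and 0.07 (Ndufaf2, 678 nt), 0.54, 0.47 and 0.59 (Ndufaf8, 781 nt), -0.41, 0.24 and -0.08 (Ndufaf6, 1082 nt) and -0.05, -0.03 and -0.24 (Ndufaf5, 1166 nt). The 4 longer ones deviated by -0.43, -0.29 and -0.64 (Ndufaf1, 1451 nt), 0.13, 0.33 and 0.08 (Ndufaf3, 1487 nt), -0.47, 0.03 and -0.37 (Ndufaf7, 1749 nt) and -0.16, -0.38 and 0.06 (Ndufaf4, 3632 nt).

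Short mRNAs of other genes deviated in the same mice, with smaller medians. The 344 tested protein-coding genes under 700 nt that are no complex I subunit had median deviations of 0.28 and 0.20 in ΔGm15551 replicates 1 and 5, of 0.34 in wild type replicate 7, and of -0.19 to 0.06 elsewhere. With the median transcript length 803 such genes were under 700 nt, and the 3 medians were lower, 0.15, 0.14 and 0.16. Across the 37 subunits, Spearman's rho of the deviation with transcript length was -0.77 in ΔGm15551 replicate 1, -0.51 in ΔGm15551 replicate 5, -0.70 in wild type replicate 7 and -0.29 in wild type replicate 2. It was 0.52 to 0.75 in the other 6 mice. Over the 12274 genes rho ran from -0.30 to 0.25. These correlations run across genes within 1 library, and the genes share that library's depth and base composition. The deviations also went with GC content in some mice: rho of the deviation with GC content across the subunits was 0.61 in ΔGm15551 replicate 5 but -0.50 in wild type replicate 3, against 0.62 and -0.56 over the 12274 genes. The GC-rich subunits Ndufs7 (60.7% GC) and Ndufa13 (60.4% GC) were lowest in wild type replicate 3, at -0.75 and -0.68.

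**Figure D4:**
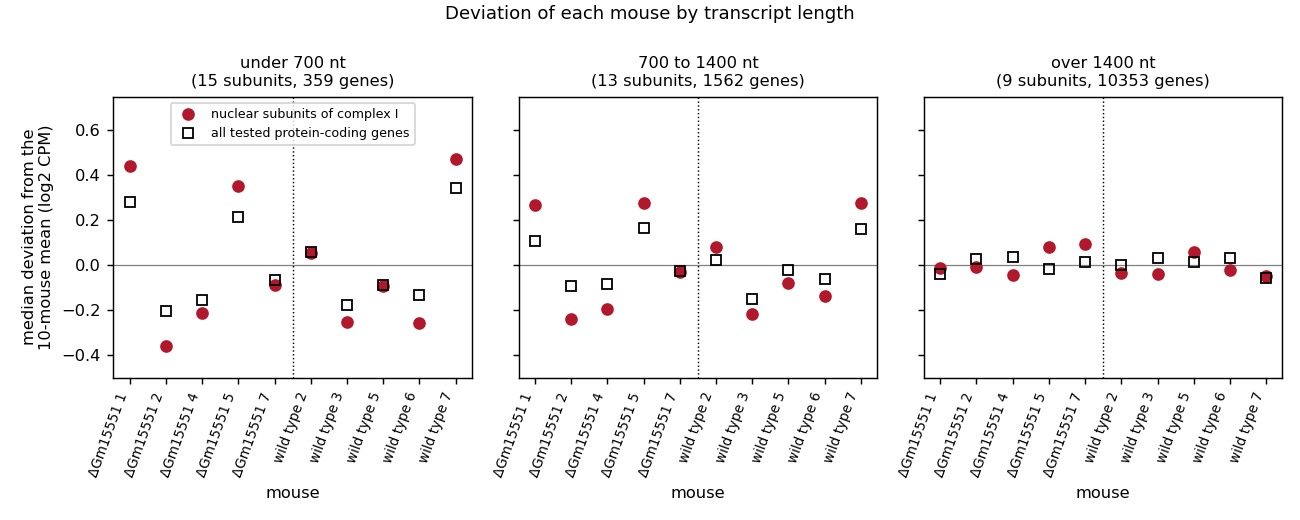
The 3 panels give, per mouse, the median deviation from the 10-mouse mean in log2 CPM (vertical axis) of complex I subunits (filled circles) and of all tested protein-coding genes, subunits included (open squares), under 700 nt, of 700 to 1400 nt and over 1400 nt. In the short class ΔGm15551 replicates 1 and 5 and wild type replicate 7 lie at 0.35 to 0.47 for the subunits and at 0.21 to 0.35 for all genes, and the long class stays within 0.10 of 0.

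A correction of log2 CPM for length and GC content (a loess curve per mouse, chosen after seeing the data) narrowed the spread of the subunits. Their median within-group SD went from 0.24 to 0.13 on the log2 scale and was lower for 33 of 37, whereas over all genes tested it went from 0.27 to 0.24. For the 15 short subunits it went from 0.36 to 0.17, and for the 9 subunits over 1400 nt it was 0.109 before and 0.115 after, lower in 5 of 9. Ndufs1 kept a within-group SD of 0.39, against 0.48 before. After the correction the log2FC of the subunits had a median of 0.01 and 0 genes were called.

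The composition of the libraries moved with the pattern in part. Red blood cell markers (5 genes) took 0.256% of the counts in wild type replicate 7, 0.178% in ΔGm15551 replicate 1 and 0.149% in ΔGm15551 replicate 5, and 0.0646% to 0.110% elsewhere. Endothelial markers (5 genes) took 0.129% in ΔGm15551 replicate 1, 0.116% in wild type replicate 7, 0.110% in ΔGm15551 replicate 5 and 0.0659% to 0.107% elsewhere. The muscle share was high in ΔGm15551 replicate 1 and wild type replicate 7 but 0.00800% in ΔGm15551 replicate 5, and ΔGm15551 replicate 4, with 0.157%, had short subunits at -0.21. Transcripts of the mitochondrial genome had the highest shares of the counts in ΔGm15551 replicate 1 (28.4%) and wild type replicate 7 (27.9%), but 19.8%, the lowest, in ΔGm15551 replicate 5. Macrophage markers were also highest in these 2 mice (0.00329% and 0.00321%), with 0.00303% in wild type replicate 2 and 0.00210% in ΔGm15551 replicate 5. White adipocyte markers took 0.0108%, 0.0117% and 0.00852% in ΔGm15551 replicate 1, wild type replicate 7 and ΔGm15551 replicate 5, and 0.0111% in wild type replicate 6. Together the brown adipocyte markers took 2.69%, 3.10% and 2.74% of counts in ΔGm15551 replicates 1 and 5 and wild type replicate 7. These shares lay within the range of the other mice, but single markers differed. Ucp1 had 5747 CPM in ΔGm15551 replicate 1 and 6436 CPM in wild type replicate 7, against 8266 to 10989 CPM elsewhere. Plin1, Pparg and Dio2 were also lowest in these 2 mice, whereas Fabp4 and Cox8b were highest there. The other brown adipocyte markers did neither. The part of these RNAs in the subunit pattern was not tested. Leaving out the 3 libraries with most muscle RNA gave 0 called genes and a median subunit log2FC of 0.09.

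Within the complex, steady-state levels were compared per transcript length, as CPM per kb. The 37 subunits had a median of 309 CPM per kb and spanned 10.3-fold. Ndufb9 (838 ± 152) and Ndufb8 (792 ± 119) were the highest and Ndufv3 (156 ± 11.8), Ndufs4 (108 ± 9.56) and Ndufb4 (81.6 ± 7.11) the lowest (CPM per kb, mean ± SD of 10 mice). Ndufb9 and Ndufb8 lay within each other's SD, whereas Ndufs4 and Ndufv3 did not. The order depends on the length, which was the shortest principal transcript, a choice made after seeing the data. With the planned median transcript length Ndufb8 (981 ± 148) was the highest and Ndufb2 (61.2 ± 15.9, against 325 before) the lowest, and Ndufv3 and Ndufs4 stood at 383 and 209 CPM per kb. The module medians were 254 for the N module, 285 for the Q module, 363 for the proximal and 345 for the distal membrane arm, and 389, 296, 387 and 378 with the planned length, so that the N module was the lowest or the highest by the length used.

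The assembly factors formed a separate, lower tier. They ran from 11.8 ± 1.74 (Ndufaf6) to 31.2 ± 6.95 CPM per kb (Ndufaf1), below every subunit. In each mouse the median subunit stood 11.6 to 22.2 times above the median Ndufaf gene, with a mean of 14.5 ± 2.92 in ΔGm15551 and 14.8 ± 4.31 in wild type. Ndufa4 reached 1389 ± 249.6 CPM per kb, above every nuclear subunit, and its paralog Ndufa4l2 9.98 ± 2.94. The mt-Nd transcripts ranged from 1888 (mt-Nd3) to 23795 CPM per kb (mt-Nd1). Nearly all 31-base words of mt-Nd3 (98.1%) and mt-Nd4l (98.9%) and 62.8% of those of mt-Nd4 also occur in other records, so that their counts may be split between records.

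**Figure D5:**
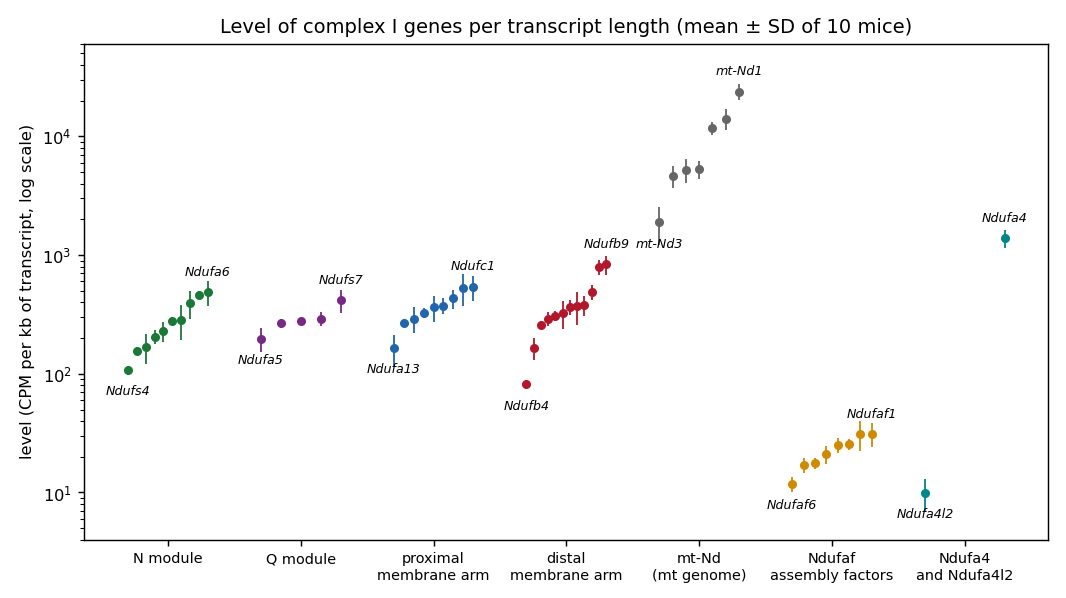
The plot gives the level of complex I genes, with 36 of the 37 subunits, in CPM per kb of transcript (vertical axis, log scale) as mean ± SD of 10 mice, by module, with the lowest and highest plotted gene of each named. The nuclear subunits lie between 81.6 and 838, the Ndufaf genes between 11.8 and 31.2, and the mt-Nd transcripts between 1888 and 23795.

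The low level of Ndufb4, a distal membrane arm subunit (chr16:37647170-37654453, minus strand), depends on how reads were assigned. Its processed pseudogene Ndufb4c (chr15:73809507-73809896, minus strand) is a single exon, and all 390 bases of it are identical to the coding sequence of Ndufb4, so that a read from the coding part fits both. The stretch below is exon 2 of Ndufb4 (chr16:37649014-37649160) and equally bases 181 to 327 of the pseudogene (chr15:73809570-73809716). It is shown because reads from it cannot be assigned to one locus. No base differs, so none is in capitals.

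Ndufb4 exon 2 and Ndufb4c: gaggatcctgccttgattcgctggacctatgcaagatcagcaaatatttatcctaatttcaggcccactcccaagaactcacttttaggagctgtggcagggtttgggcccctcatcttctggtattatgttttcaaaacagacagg

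The deposited counts gave Ndufb4c more reads than Ndufb4, with 118 ± 15.6 CPM in ΔGm15551 and, in wild type, 118 ± 11.3 CPM, compared with 79.9 ± 8.27 and 78.6 ± 6.15 CPM for Ndufb4. Together they stood at 198 ± 22.4 and 197 ± 15.5 CPM. How many of these reads came from either locus cannot be read from the counts. In all, 9 of the 47 genes shared at least 15% of their 31-base words with another annotated gene, led by Ndufs3 (49.3%, with the pseudogene Gm12251, which had a mean of 0.4 counts). The pseudogenes that share words with Ndufs6, Ndufa11 and Ndufb11 had a mean of at most 0.5 counts. Ndufb9 and Ndufb8 share words with protein-coding records that overlap their exons on the same strand (Gm49356, with a mean of 5.5 counts, and Gm20538, with 0). For Ndufa12 and Ndufs5 the records that share most words, Gm15920 and BC002163, have no value here. The exons of 18 genes overlapped another gene on the opposite strand, and whether the counting used strand is not given in the sources used here.

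Promoters of nuclear respiratory genes often hold sites for a few shared activators. RefSeq promoter windows (GRCm38.p6, 250 bases before to 50 after the start) were found for 33 of the 37 subunits and searched on both strands. The motif of NRF1, an activator of respiratory chain genes, was found in 7 of 33 (21.2%), against 4.6% of all 32851 windows and 11.5% of the genes tested. AANATGGCG, a match for YY1, was also found in 7 of 33, against 2.38% of all windows and 5.88% of the genes tested. CCGGAAG, an ETS site of the kind GABP binds, was found in 4 of 33 (12.1%), against 8.86% and 19.9%. TCAAGGTCA, a site for oestrogen-related receptors, was found in 0 of 33, against 0.423% of all windows. The general promoter letters CCAAT and TATAAA were found in 10 (30.3%) and 4 (12.1%) of 33, against 37.4% and 13.6% of all windows and 42.5% and 8.87% of the genes tested. A match of letters is a description and not a site in use.

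In Ndufs5 and Ndufa11, both accessory subunits of the proximal membrane arm with short mRNAs, the NRF1 match lay within the 100 bases before the annotated gene. The windows run from chr4:123718203-123718302 (minus strand) and chr17:56717662-56717761 (plus strand), 5′ to 3′, and capitals mark the match.

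Ndufs5: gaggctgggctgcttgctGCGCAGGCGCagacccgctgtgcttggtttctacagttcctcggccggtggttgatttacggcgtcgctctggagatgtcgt

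Ndufa11: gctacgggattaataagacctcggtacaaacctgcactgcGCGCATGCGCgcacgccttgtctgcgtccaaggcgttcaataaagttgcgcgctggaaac

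Ndufs5 had 268, 191, 187, 280.2 and 212 CPM in ΔGm15551, against 228, 186, 205, 206 and 300.3 CPM in wild type, and Ndufa11 had 202, 113, 141, 194 and 148 CPM and 159, 109, 166.3, 129 and 226 CPM. ΔGm15551 replicates 1 and 5 and wild type replicate 7 were the 3 highest mice for both. Their genotype log2FC values were 0.02 (-0.33 to 0.36) and 0.02 (-0.42 to 0.46). The other subunits with an NRF1 match before the start were Ndufs6, Ndufa5, Ndufa8 and Ndufb4. In ΔGm15551 replicates 1 and 5 and wild type replicate 7 they deviated by 0.52, 0.38 and 0.58 (Ndufs6), 0.45, 0.14 and 0.54 (Ndufa5), 0.27, 0.20 and 0.28 (Ndufa8) and 0.17, 0.10 and 0.13 (Ndufb4). Whether subunits with a match differed from those without one was not tested.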

How the data were processed

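Poly A RNA of iBAT from 5 ΔGm15551 and 5 wild type mice was sequenced paired-end. The authors trimmed the reads (cutadapt) and quantified them with salmon on GENCODE M22 transcripts (GRCm38), alone or combined with RNAcentral, and deposited expected counts per gene, whole numbers that were not scaled to depth. Tool versions and use of strand are not given in the sources used here. Depth ranged from 9680976 to 15771170 counts. The intervals of log2FC come from the fit over mice and include the spread between mice. Groups followed the sample labels.

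From these counts, genes with low values were removed (filterByExpr, minimum count 10, minimum total 15), except the targeted gene Gm15551, which was kept. Libraries were scaled by TMM, and genotypes were compared with edgeR's quasi-likelihood test (edgeR 4.0.16, limma 3.58.1, R 4.3.3) with Benjamini-Hochberg adjustment over all genes tested. DESeq2 1.42.0 and limma-voom, other scalings and filters, leaving out each mouse, a replicate block and other exclusions were alternatives. Log2 CPM used a prior count of 2. Scripts were tested on simulated data.

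Lengths and exons came from GENCODE M21 (GRCm38), which held 99.53% of the 54347 identifiers. The length was that of the shortest principal transcript, in place of the planned median transcript, a change made after seeing the data. The loess correction (span 0.3) used length and GC content of that transcript.

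The members and lists were chosen with earlier results of these data known. Genes named with full values were the 3 members with the smallest p, the nuclear core subunits, Ndufa4, Ndufa4l2, Ndufab1, Ndufs4, Ndufv3, Ndufa12 and Ndufaf2. Others were named for extreme level or spread or for near-identical copies. Ndufa1, Ndufa13, Ndufb2, Ndufaf3, Ndufaf5, Ndufaf7, Ndufaf8, Ndufs6, Ndufa5, Ndufa8, Ndufs5 and Ndufa11 were named after their values were seen. 1 subunit is not reported here by name, although counts and medians include it.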

Additional observations from a re-analysis of the deposited data

Results flagged for a closer look

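In 3 of 52 groups of 5 mice searched, 1 mouse stood apart from the other 4 by Dixon's criterion (critical value 0.71), and chance gives about 1 in 20 groups, or 2.6 here. Ndufa4l2 stood at 14.27 CPM in wild type replicate 7 and between 6.167 and 7.79 CPM in the 4 remaining wild type mice. Ndufv3 stood at 292.4 CPM in ΔGm15551 replicate 5 and between 233.1 and 245.1 CPM in the 4 remaining ΔGm15551 mice. The median subunit stood 22.19 times above the median Ndufaf gene in wild type replicate 7 and 11.71 to 14.73 times above it in the other wild type mice. With other transcript lengths this mouse would not have met the criterion: the ratio was 17.18 against 10.58 to 13.23 with the median length (Dixon 0.60) and 17.05 against 11.37 to 14.42 with the union of exons (Dixon 0.46). The reasons were not tested.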

How the results depend on the processing

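No gene and no complex I gene was called in any of the 22 alternatives, and 45 to 47 of the 47 intervals stayed within 2-fold. The number of complex I genes with an unadjusted p under 0.05 was 0, and with 1 mouse left out 0 to 1. The 1 was Ndufa4l2 without wild type replicate 7, where 404 of all 13888 genes tested were under 0.05. Without the 3 libraries with most muscle RNA (left out after seeing the data) the number was 1, again Ndufa4l2 (edgeR quasi-likelihood test, adjusted p = 0.969). There 561 of all 13908 genes tested were under 0.05. The subunit median log2FC ran from -0.104 to 0.093. Without a length the ratio of subunits to Ndufaf genes was 9.79. The subunit share of counts was 1.47% without mitochondrially encoded genes and 1.45% without the 10 most abundant genes, and the mt-Nd share was 1.86% without those 10.

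Same-numbered mice did not deviate together (r = -0.226, 0.106 and -0.461 for numbers 2, 5 and 7 over 10242 genes, a correlation across genes). Patterns of single libraries, such as that with length, enter these values. They cannot decide whether the numbers pair the mice. With a replicate block in these 6 mice the subunit median was -0.104 and 0 genes were called. Under the block, log2FC turned to 0.313 for Ndufs1, -0.056 for Ndufs7, -0.042 for Ndufs8, -0.020 for Ndufab1 and -0.097 for Ndufa12. In the 6 mice without the block it turned to 0.282, -0.033, -0.021, -0.013 and -0.084 for these, and to 0.014 for Ndufaf4.

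Other values that changed sign were all small and not called. Ndufs4 had 0.001 with library totals alone, 0.006 with no filter, 0.043 without the muscle-rich libraries and 0.049 after the length and GC correction. Without the 3 libraries high in short subunits Ndufs1 had 0.051, Ndufs8 -0.047, Ndufa12 -0.054 and Ndufv3 -0.010. Ndufs3 had 0.086 when wild type replicates 5, 6 and 7, whose mouse numbers form a separate series, were left out and 0.085 without the muscle-rich libraries. After the correction Ndufv3 had -0.019 and Ndufa4 0.020. With 1 mouse left out, log2FC ran from -0.061 to 0.089 for Ndufa12, -0.139 to 0.089 for Ndufa4, -0.224 to 0.067 for Ndufs1, -0.057 to 0.037 for Ndufs3, -0.036 to 0.047 for Ndufs4, -0.017 to 0.143 for Ndufs8 and -0.031 to 0.057 for Ndufv3. The causes were not tested.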
